A study of Mus musculus with 12 samples.

Results

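Genomic imprinting was followed through liver development in 44 imprinted mouse genes, taken from a list of gene symbols. They are 44 of the 53715 genes of the deposited count table. All 44 symbols matched a single row, and 41 of them had more than 10 counts in at least 1 library and were tested. Slc22a2, Magel2 and Calcr did not pass that filter.

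Imprinted genes are expressed mainly or only from the copy inherited from the mother or from the copy inherited from the father, because parent-specific DNA methylation at control regions is set in the germline and kept in the embryo. Many of them lie in clusters and act on fetal growth: paternally expressed genes such as Igf2 tend to promote it, and maternally expressed genes such as Igf2r, Grb10 and Cdkn1c tend to restrain it. In rodent liver, several of the growth-related members are known for high fetal and low adult expression. By textbook assignment, the list holds 22 genes expressed from the maternal copy, 21 from the paternal copy, and Gnas, which makes transcripts of either kind. For several of them (Gatm, Dcn, Slc22a2 and Slc22a3 among others) imprinting is known mainly in the placenta. The mice were of an inbred strain, C57BL/6JOlaHsd, so the files do not tell the parental copies apart, and only the summed RNA of both copies is described here.

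RNA of 12 libraries was measured, 4 biological replicates in each of 3 groups. Hepatoblasts, the fetal progenitors of hepatocytes and bile duct cells, were sorted from E14.5 livers with magnetic beads against the surface protein Dlk1 and lysed directly, and each isolation pooled the livers of many embryos. Diff. hepatocytes were such Dlk1+ cells after 4 days on fibronectin-coated plates in differentiation medium with serum, dexamethasone and Matrigel. Mature hepatocytes came directly from adult males of 8 to 12 weeks by collagenase perfusion. Since Dlk1 is itself a member and the sort marker, its level in hepatoblasts reflects the selection too. Age and way of isolation change together with the group, and their parts cannot be told apart.

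Reads counted on genes ranged from 19581551 to 25216977 per library. Levels are given as CPM, counts relative to library sizes scaled by TMM, which compare 1 gene between libraries. In 1 library, 0 counts of a gene allow up to 3 counts, or 0.0895 to 0.206 CPM, for counting error only. Hepatocyte markers were high in all groups, with 6 genes summing to 33686 to 56993 CPM in hepatoblasts, 49769 to 57486 CPM in the Diff. group and 103638 to 145820 CPM in the mature group. Hepatoblast replicate 1 held 2070.0 CPM of 10 erythroid genes, while the other hepatoblast libraries held 240.2 to 419.7 CPM. It also held the most macrophage (311 CPM, others 77.5 to 97.4) and endothelial RNA (138 CPM, others 34.5 to 62.7) of its group. The same held for cell cycle genes (2777 CPM, others 1625 to 1855). Its hepatocyte (33686 CPM) and mesenchymal (666 CPM) sums were the lowest of the group, and its bile duct sum lay within the range of the others. The 9 mesenchymal markers, such as Col1a1 and Pdgfra, summed to 666 to 1302 CPM in hepatoblasts, 1191 to 2934 CPM in the Diff. group and 20.97 to 39.3 CPM in the mature group, and in mature hepatocytes all 9 were above 0. Of the 9, 8 were called lower in mature hepatocytes than in hepatoblasts and Lrat higher. The mesenchymal sum was low in mature hepatocytes, as many members were. In Diff. hepatocytes against hepatoblasts, 3 of the 9 markers were called higher and 0 lower, while 15 members were called lower. The part of these markers in the members' values was not tested. In bulk RNA, fewer cells of a type and less RNA per cell cannot be told apart.

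The 44 genes together took 2.80% to 4.00% of all counts in hepatoblasts, 2.64% to 3.12% in the Diff. group and 0.148% to 0.194% in the mature group. H19, a long noncoding RNA, made up the larger part in every hepatoblast and every Diff. library. It took 1.497% to 2.26% of all counts in hepatoblasts, 2.08% to 2.59% in the Diff. group and 0.00195% to 0.00311% in the mature group. Without H19, the other 43 genes took 1.30% to 1.82%, 0.522% to 0.567% and 0.145% to 0.192% in the same order. None of these ranges overlapped between mature hepatocytes and either other group.

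**Figure D1:**
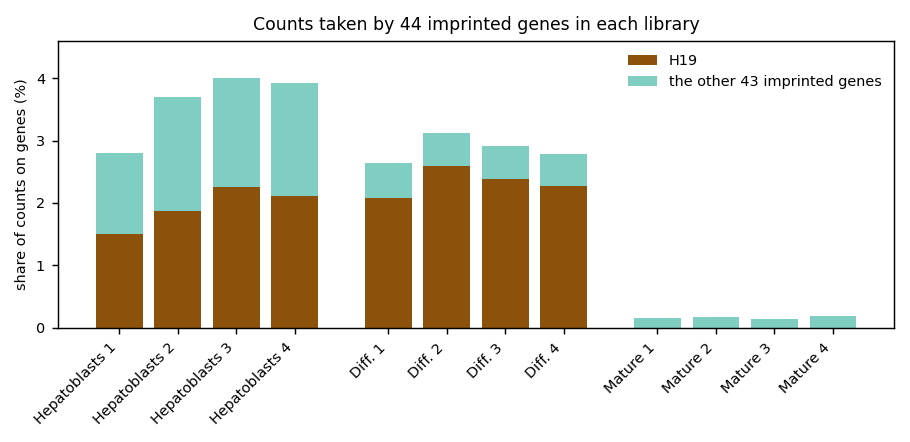
Share of the counts on genes (y axis, percent) taken by H19 (brown) and by the other 43 imprinted genes (green) in each of the 12 libraries (x axis, group and replicate). The bars reach 2.80% to 4.00% in hepatoblasts and 2.64% to 3.12% in Diff. hepatocytes, and stay at 0.148% to 0.194% in mature hepatocytes.

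A gene was called when edgeR's quasi-likelihood test gave a p under 0.01 after Benjamini-Hochberg adjustment over 17779 genes, with a log2 fold change beyond 1 in either direction, and all adjusted p-values below are from that test. In mature hepatocytes against hepatoblasts, 26 of 41 members were called lower and 6 higher, where 24.7% of all genes tested were lower and 20.1% higher (44.8% either way). In Diff. hepatocytes against hepatoblasts, 15 members were called lower and 2 higher, where the background was 14% lower and 14.9% higher (28.9% either way). In Diff. hepatocytes against mature hepatocytes, 26 were called higher and 5 lower, against 20.2% and 15.6% of all genes (35.8% either way). The 26 include Nap1l5, which passed the count filter only through Diff. libraries. The 3 comparisons share libraries and are not independent of each other. The count of members higher in Diff. hepatocytes than in hepatoblasts was 0 to 6 over all settings run, and the count higher in mature hepatocytes than in hepatoblasts was 2 to 7. Hepatoblast replicate 1 did not decide the counts of members called lower, which were 16 in Diff. hepatocytes and 26 in mature hepatocytes without it. Markers of other cells moved in the same comparison: all 10 erythroid genes and 6 of 8 endothelial genes were called lower in Diff. hepatocytes than in hepatoblasts. The erythroid sum was 240.2 to 2070.0 CPM in hepatoblasts and 5.08 to 12.1 CPM in the Diff. group, and the endothelial sum 34.5 to 138 CPM and 4.93 to 10.8 CPM, with none of these genes at 0 throughout either group. In the mature group the erythroid sum was 135 to 183 CPM. Of the 10 genes, 9 were called lower there than in hepatoblasts and 1 higher. The endothelial sum there was 111 to 209 CPM, with 3 of the 8 genes called higher than in hepatoblasts and 0 lower. Bile duct markers went the other way in culture: 3 of the 5 tested were called higher than in hepatoblasts and 0 lower. Their sum was 12.92 to 15.05 CPM in hepatoblasts and 69.95 to 213 CPM in the Diff. group. The study reports cells positive for the bile duct marker Sox9 among Dlk1+ cells of E14.5 livers. The part of these markers in the members' values was not tested.

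The median log2 fold change of the 41 members was -3.54 in mature hepatocytes against hepatoblasts, beside -0.15 for all genes tested. It was -0.57 beside -0.013 in Diff. hepatocytes against hepatoblasts, and 2.65 beside 0.092 in Diff. against mature hepatocytes. With the genes at or under 3 counts per library set to that floor, the medians of mature hepatocytes against hepatoblasts and of Diff. against mature hepatocytes became -3.26 and 2.48. Scaled by plain library totals, the median of all genes shifted to -0.34 in the Diff. group and -0.9998 in mature hepatocytes against hepatoblasts, and to 0.62 between the hepatocyte groups, and changes of that size depend on the scaling.

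As a second description, every library of 1 group stood apart from every library of the other for 18 members lower and 6 higher in Diff. hepatocytes than in hepatoblasts, where 28.8% and 28.6% of all genes did so (57.5% either way). In mature hepatocytes against hepatoblasts, 29 were wholly lower and 7 wholly higher, beside 35.9% and 30.1% of all genes (66% either way). In Diff. against mature hepatocytes, 27 were wholly higher and 11 wholly lower, beside 32.4% and 29.2% (61.6% either way).

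By their calls over the 3 comparisons, the members fell into the patterns below. The share of all genes tested with each pattern was not counted, so these numbers only describe the members. The most frequent, in 13 genes, was no call between hepatoblasts and Diff. hepatocytes together with a call lower in mature hepatocytes than in both: H19, Dio3, Peg3, Usp29, Zim1, Plagl1, Grb10, Airn, Sgce, Nnat, Ndn, Impact and Kcnq1ot1. A further 12 genes were lower in Diff. hepatocytes than in hepatoblasts and lower again in mature hepatocytes: Igf2, Dlk1, Meg3, Rian, Mirg, Rtl1, Cdkn1c, Mest, Igf2r, Peg10, Asb4 and Phlda2. Slc22a3, Slc22a18 and Kcnq1 were higher in mature hepatocytes than in both other groups, and Zrsr1 and Slc38a4 were higher than in hepatoblasts already in Diff. hepatocytes. Snrpn and Gatm were lower in Diff. hepatocytes than in both other groups. Ppp1r9a was lower than in hepatoblasts in both hepatocyte groups, H13 was higher in mature hepatocytes than in hepatoblasts, and Nap1l5 was higher in Diff. than in mature hepatocytes, each with no other call. Copg2, Ube3a, Gnas, Commd1, Dcn and Inpp5f had no call in the 3 comparisons. Of 20 tested genes assigned to the maternal copy, 11 were lower and 4 higher in mature hepatocytes than in hepatoblasts. Of 20 assigned to the paternal copy, 15 were lower and 2 higher. Of all genes tested, 24.7% were lower and 20.1% higher there.

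**Figure D2:**
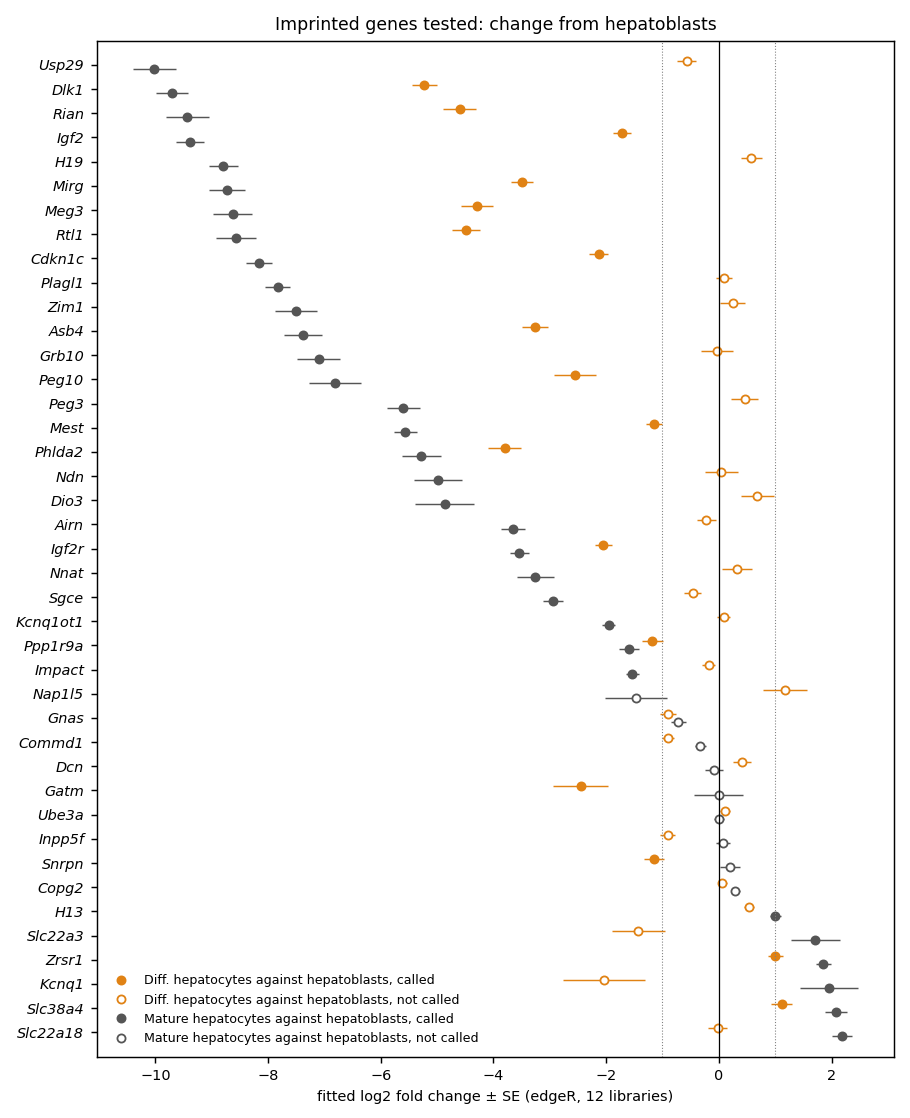
Fitted log2 fold change with its standard error (x axis, edgeR over 12 libraries) of each of the 41 imprinted genes tested (y axis, ordered by the change in mature hepatocytes). Orange points are Diff. hepatocytes against hepatoblasts, grey points mature hepatocytes against hepatoblasts, filled points are called, and dotted lines mark -1 and 1. Usp29 stands lowest in mature hepatocytes and is open, at -0.57, in Diff. hepatocytes, while Dlk1 fell in both (-5.23 and -9.71). Fitted values of genes near 0 counts depend on the prior count.

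Overlapping genes limit some of these values. Of 142 genes whose exons lie wholly within exons of an opposite-strand gene with at least 5000 counts, 141 were listed at 0 in all 12 libraries, so exon stretches shared by both strands held almost no counts in this table. The strand setting of the counting is not given in the sources used here. Shared stretches made up 76.2% to 97% of the exon bases of the annotated Igf2 transcripts, mostly with Gm49394 on the same strand, which was at 0 in all libraries. They were 35.5% to 96.7% for Usp29, 0% to 94.8% for Gnas, 30.5% to 33.8% for Snrpn, 34.2% to 38.1% for Mest and 31% to 31.2% for Cdkn1c. The levels of these genes, and of Igf2 most of all, may be understated. Comparisons of 1 gene between groups use the same annotated stretches in all libraries. The shared part differs between transcripts of a gene, such as 8.9% to 47% for Meg3. Whether the groups used different transcripts was not examined, so a change of transcript could change the counts too.

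H19 and Igf2 are neighbours on chromosome 7 under a common control region, with H19 expressed from the maternal and Igf2 from the paternal copy. H19 lies at chr7:142575529-142578143, - strand, and Igf2, which encodes a fetal growth factor, at chr7:142650766-142666816, - strand (GRCm38). H19 is also the precursor of miR-675, whose hairpin lies in an H19 exon. Its mature forms are printed from RefSeq with the seed, bases 2 to 8, in capitals, because H19 had the highest level per length of all members in hepatoblasts and Diff. hepatocytes.
mmu-miR-675-5p: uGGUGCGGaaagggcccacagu
mmu-miR-675-3p: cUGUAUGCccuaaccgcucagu
Mature miRNAs were not measured by these poly(A) libraries, and the row of the hairpin itself had 0 counts in all 12 libraries.

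H19 measured 10385, 14131, 18029 and 17093 CPM in hepatoblasts, 19209.9, 24522, 23279.8 and 21869 CPM in the Diff. group and 33.4, 31.0, 41.2 and 28.7 CPM in the mature group. In CPM all 4 cultured libraries were above all hepatoblast libraries, and the mature libraries were lower than both by orders of magnitude. As a share of all counts, hepatoblasts (1.497% to 2.26%) and the Diff. group (2.08% to 2.59%) overlapped. The log2 fold change was 0.58 ± 0.18 (SE, adjusted p = 0.0159) in Diff. hepatocytes against hepatoblasts, which is not a call, and -8.79 ± 0.26 (SE, adjusted p = 8.42e-12) in mature hepatocytes. Igf2 measured 456, 657, 745 and 782 CPM in hepatoblasts, 154, 211, 230.0 and 206 CPM in the Diff. group and 0.822, 1.03, 1.11 and 0.931 CPM in the mature group, with 12 to 19 counts in the last group. The 3 groups did not overlap. Igf2 fell by 1.72 ± 0.16 on the log2 scale in Diff. hepatocytes (adjusted p = 1.24e-06), and it fell by 9.39 ± 0.25 in mature hepatocytes (adjusted p = 4.27e-12).

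Igf2r, Grb10, Cdkn1c and Phlda2, used from the maternal copy, and Plagl1, used from the paternal copy, were all called lower in mature hepatocytes, and Igf2r, Cdkn1c and Phlda2 also in culture. Igf2r (chr17:12682406-12769664, - strand), the receptor that carries IGF2 to the lysosome for degradation, measured 957, 1523, 1502 and 1523 CPM in hepatoblasts, 336, 311, 324 and 359 CPM in the Diff. group and 103, 109, 120.4 and 141 CPM in the mature group. It fell in steps that did not overlap, with log2 fold changes of -2.05 ± 0.16 (SE, adjusted p = 1.44e-07) and -3.54 ± 0.17 (SE, adjusted p = 5.6e-10) against hepatoblasts. Grb10 (chr11:11930508-12038683, - strand), an adaptor that dampens insulin and IGF receptor signalling, measured 1162, 1784, 1801 and 1784 CPM in hepatoblasts, 1774, 1488, 1626 and 1480.5 CPM in the Diff. group and 7.06, 16.9, 17.6 and 5.77 CPM in the mature group. Hepatoblasts and Diff. hepatocytes overlapped, at a log2 fold change of -0.036 ± 0.28 (SE, adjusted p = 0.921), and in mature hepatocytes it was -7.10 ± 0.37 (SE, adjusted p = 1.67e-09). Mature replicates 2 and 3 held more Grb10 than replicates 1 and 4, and the mesenchymal markers summed to 31.5 and 39.3 CPM in the former and 20.97 and 24.2 CPM in the latter. The part of these markers in the Grb10 values was not tested.

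Cdkn1c (chr7:143458339-143461050, - strand) encodes p57, an inhibitor of cyclin-dependent kinases that holds cells out of the cell cycle. It measured 175, 259, 261 and 265 CPM in hepatoblasts, 66.3, 47.3, 56.6 and 48.0 CPM in the Diff. group and 0.480, 0.834, 0.933 and 1.05 CPM in the mature group, without overlap. The log2 fold changes were -2.14 ± 0.16 (SE, adjusted p = 1.43e-07) and -8.16 ± 0.24 (SE, adjusted p = 7.98e-12) against hepatoblasts. The 12 cell cycle genes listed, such as Mki67 and Cdk1, were all called lower in both hepatocyte groups too. Plagl1, a zinc finger transcription factor of fetal growth, measured 96.1, 119.6, 145 and 117 CPM in hepatoblasts and 148, 119.6, 129 and 111 CPM in Diff. hepatocytes. Mature hepatocytes held 9, 9, 11 and 4 counts, or 0.617, 0.577, 0.642 and 0.248 CPM. Its log2 fold change was 0.086 ± 0.14 (SE, adjusted p = 0.618) in the Diff. group and -7.83 ± 0.22 (SE, adjusted p = 6.5e-12) in mature hepatocytes, and the cultured libraries overlapped the hepatoblast libraries.

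Phlda2 (chr7:143501545-143503150, - strand) encodes a small protein that restrains placental growth. It measured 16.7, 25.2, 25.8 and 28.1 CPM in hepatoblasts, 1.90, 1.08, 1.998 and 1.87 CPM in the Diff. group and 0.137, 0.577, 0.817 and 0.869 CPM in the mature group. The 3 groups did not overlap. The log2 fold change was -3.80 ± 0.30 (SE, adjusted p = 1.95e-07) in culture and -5.28 ± 0.34 (SE, adjusted p = 1.27e-08) in mature hepatocytes. The difference between the hepatocyte groups, 1.48 ± 0.37 (SE, adjusted p = 0.003), rested on 25 to 45 counts per library in Diff. and 2 to 14 counts in mature hepatocytes, and was no call when the threshold was put into the test (adjusted p = 0.107 by edgeR's glmTreat).

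**Figure D3:**
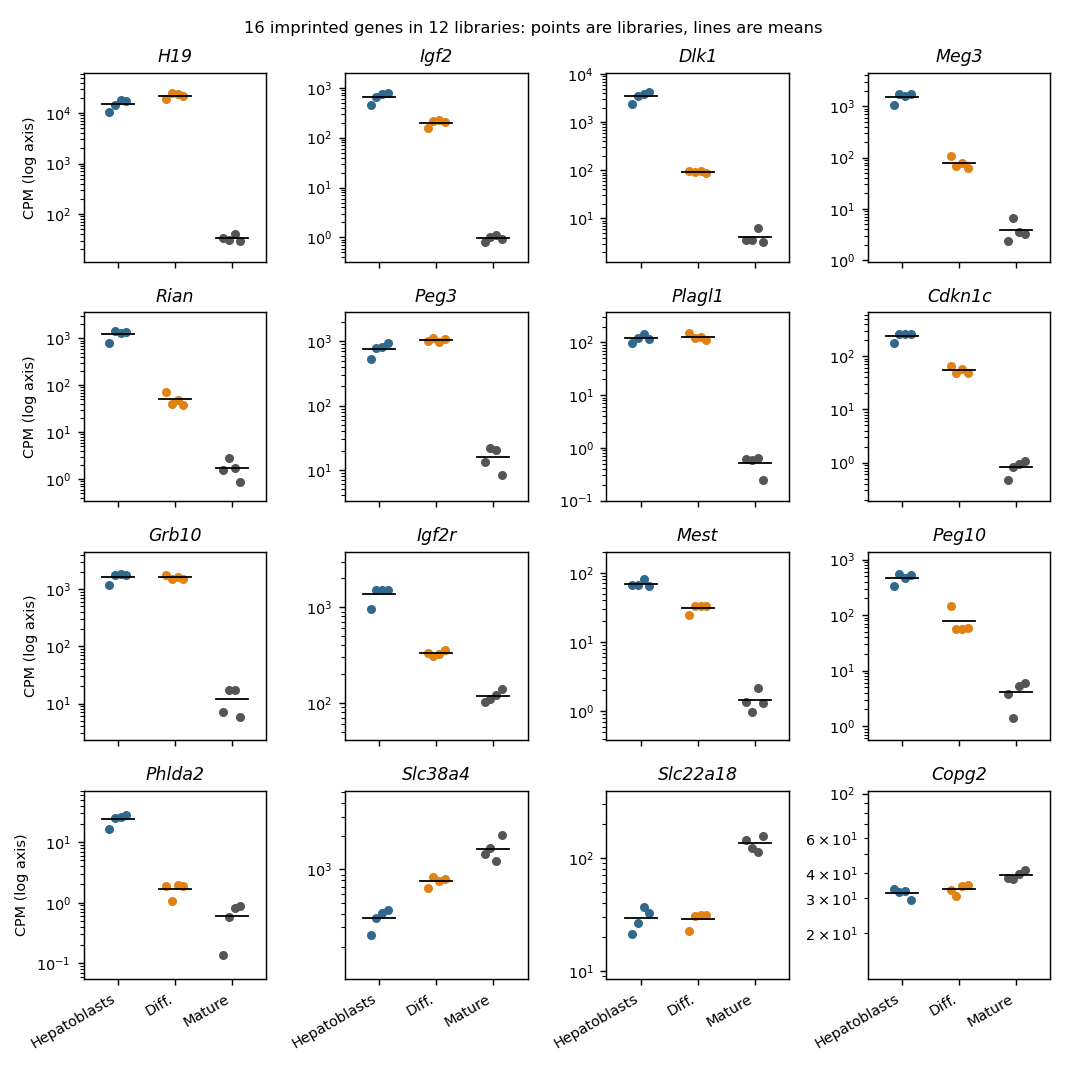
Level of 16 imprinted genes in the 12 libraries (y axis, CPM on a log axis with its own range in each panel; x axis, group). Points are libraries and lines are group means. H19, Peg3, Plagl1 and Grb10 have no call in Diff. hepatocytes and are low in mature hepatocytes, Igf2, Dlk1, Meg3, Rian and Phlda2 are already lower in Diff. hepatocytes, and Slc38a4 and Slc22a18 are highest in mature hepatocytes.

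The Dlk1-Dio3 region of chromosome 12 holds 6 members. Dlk1 (chr12:109452823-109463336, + strand), Rtl1 and Dio3 are protein-coding and used from the paternal copy, while the noncoding RNAs Meg3 (chr12:109541001-109571726, + strand), Rian and Mirg are used from the maternal copy. The noncoding RNAs host small nucleolar RNAs and miRNAs, and RefSeq lists 58 miRNA hairpins with 114 mature forms between Dlk1 and Dio3. Their seeds are diverse, 104 different seeds with at most 2 mature forms each, so they form no single seed family. Shown with the seed in capitals are miR-127 and miR-433, which lie opposite the Rtl1 coding sequence, and miR-134, miR-377 and miR-410, whose hairpins lie in Mirg exons.
mmu-miR-127-3p: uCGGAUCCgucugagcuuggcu
mmu-miR-433-3p: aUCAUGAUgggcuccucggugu
mmu-miR-134-5p: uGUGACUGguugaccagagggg
mmu-miR-377-3p: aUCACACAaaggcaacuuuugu
mmu-miR-410-3p: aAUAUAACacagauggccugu
Levels of these miRNAs were not measured, and only the long precursors are described.

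Dlk1, a Notch ligand-like surface protein of fetal progenitors, measured 2459.8, 3528, 3901 and 4196 CPM in hepatoblasts, 95.8, 93.4, 99.0 and 88.2 CPM in the Diff. group and 3.63, 3.53, 6.42 and 3.16 CPM in the mature group. Meg3 measured 1054, 1752, 1618 and 1770.4 CPM, 106, 67.6, 79.8 and 63.2 CPM and 2.33, 6.54, 3.50 and 3.23 CPM in the same order. Rian measured 816, 1431, 1291 and 1360.3 CPM, 73.9, 41.0, 48.6 and 38.2 CPM and 1.58, 2.89, 1.75 and 0.869 CPM. In each of these 3 genes the groups stood apart without overlap and in the same order. Against hepatoblasts, the log2 fold changes in Diff. hepatocytes were -5.23 ± 0.23 (SE, adjusted p = 1.43e-09) for Dlk1, -4.29 ± 0.28 (SE, adjusted p = 4.03e-08) for Meg3 and -4.60 ± 0.29 (SE, adjusted p = 3.15e-08) for Rian. In mature hepatocytes they were -9.71 ± 0.28 (SE, adjusted p = 8.28e-12), -8.63 ± 0.35 (SE, adjusted p = 1.62e-10) and -9.43 ± 0.38 (SE, adjusted p = 1.52e-10). Diff. replicate 1 held the most Meg3 and Rian of the cultured libraries.

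Mirg measured 39.4 to 76.9 CPM in hepatoblasts and 4.78 to 6.61 CPM in Diff. hepatocytes, a log2 fold change of -3.49 ± 0.20 (SE, adjusted p = 1.13e-08). Mature hepatocytes held 3, 3, 2 and 1 counts, which was lower than in hepatoblasts by 441-fold (95% interval 232 to 965), an interval for counting error only. Rtl1, a protein derived from a retrotransposon and needed in the placenta, measured 49.02, 82.8, 87.9 and 100.2 CPM in hepatoblasts, 4.84, 2.84, 3.51 and 3.10 CPM in the Diff. group and 1, 5, 2 and 5 counts in the mature group. Reads of the opposite-strand precursor of miR-127 and miR-433 cannot be told apart from Rtl1 reads if strand was not used in the counting. Dio3, the deiodinase that inactivates thyroid hormone, was low throughout, with 0.806, 1.04, 1.52 and 0.894 CPM in hepatoblasts and 1.86, 1.38, 1.64 and 1.97 CPM in Diff. hepatocytes, which did not differ by a call (0.68 ± 0.29 SE, adjusted p = 0.0609). Mature hepatocytes held 0, 0, 1 and 1 counts, lower than in hepatoblasts by 33.8-fold (95% interval 9.19 to 282). Dio3 was the only one of the 6 members of the region without a call lower in Diff. hepatocytes.

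Promoter windows from 250 bases before to 50 after a RefSeq start (GRCm38.p6) were found for 36 members, with 55 windows in all. The median number of CpG dinucleotides in the richest window of a gene was 17 among the members and 8 among all 27025 genes with a window, and the members ranged from 0 to 48. The letters TATAAA on the strand of the gene, starting 20 to 40 bases before the start site, were found in 3 members and in 1.99% of all 32851 windows. On either strand and anywhere in the window, TATAAA was in 21.8% of member windows and 13.6% of all windows. The 3 members are Meg3 (chr12:109540936-109540995, + strand), Dio3 (chr12:110279170-110279229, + strand) and Phlda2 (chr7:143502525-143502584, - strand), and the 60 bases before their starts are printed 5′ to 3′ with TATAAA in capitals, since the levels of these 3 genes moved in different ways.
Meg3: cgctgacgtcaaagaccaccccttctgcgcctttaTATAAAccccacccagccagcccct
Dio3: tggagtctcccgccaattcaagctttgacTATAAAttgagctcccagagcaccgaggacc
Phlda2: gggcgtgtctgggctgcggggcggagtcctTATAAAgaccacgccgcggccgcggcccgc
Meg3 and Phlda2 fell in Diff. hepatocytes and Dio3 had no call there. A match is a description of the letters and not evidence of a bound factor.

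The Peg3 cluster on chromosome 7 showed no call between hepatoblasts and Diff. hepatocytes. Peg3 (chr7:6703892-6730431, - strand), a zinc finger protein, and Usp29 (chr7:6730578-6967219, + strand), a deubiquitinase, are used from the paternal copy and start back to back. The 163 bases between their RefSeq start sites (GRCm38.p6), chr7:6730420-6730582 on the + strand, are printed with the 5 CpG dinucleotides in capitals because both genes are read outward from this stretch.
Peg3-Usp29 interval: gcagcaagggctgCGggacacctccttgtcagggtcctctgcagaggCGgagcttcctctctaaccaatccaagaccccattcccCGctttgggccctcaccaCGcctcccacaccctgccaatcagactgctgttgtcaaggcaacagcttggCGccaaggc
Peg3 measured 532, 787, 833 and 932 CPM in hepatoblasts, 1024, 1135, 997 and 1098 CPM in the Diff. group and 13.1, 21.7, 20.5 and 8.25 CPM in the mature group. In CPM all cultured libraries were above all hepatoblast libraries. As TPM, a level per exon length scaled to each library's own total without TMM, the groups overlapped. They stood at 156 to 228 in hepatoblasts and 177 to 211 in the Diff. group. The log2 fold change of 0.46 ± 0.24 (SE, adjusted p = 0.113) was no call, and the fall in mature hepatocytes was -5.60 ± 0.30 (SE, adjusted p = 1.7e-09). Usp29 measured 15.5, 24.6, 23.4 and 24.1 CPM in hepatoblasts and 17.1, 14.8, 13.8 and 13.4 CPM in Diff. hepatocytes (-0.57 ± 0.17 SE, adjusted p = 0.0115). Mature hepatocytes held 0, 0, 0 and 1 counts, lower than in hepatoblasts by 1392-fold (95% interval 249.6 to 54989.8), so 1 read stands for the whole group. Zim1, a zinc finger gene used from the maternal copy, measured 45.5, 63.8, 74.9 and 83.9 CPM, 67.4, 87.9, 71.6 and 90.5 CPM and 0.754, 0.321, 0.408 and 0 CPM in the 3 groups. Its change in Diff. hepatocytes was 0.24 ± 0.23 (SE, adjusted p = 0.377) and in mature hepatocytes -7.51 ± 0.38 (SE, adjusted p = 1.03e-09).

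Mest (chr6:30723547-30748465, + strand), an enzyme of the hydrolase family used from the paternal copy, and Copg2, a subunit of the vesicle coat overlap at their ends. Mest hosts miR-335, and its 5p form is shown with the seed in capitals.
mmu-miR-335-5p: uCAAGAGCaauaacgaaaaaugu
Mest measured 65.7, 66.9, 80.7 and 63.5 CPM in hepatoblasts, 24.8, 33.2, 33.6 and 32.9 CPM in the Diff. group and 1.37, 0.962, 2.16 and 1.30 CPM in the mature group. Its log2 fold changes were -1.15 ± 0.15 (SE, adjusted p = 1.86e-05) and -5.56 ± 0.20 (SE, adjusted p = 4.41e-11), and the former was no call by glmTreat (adjusted p = 0.199). Copg2 measured 29.3 to 33.1 CPM, 30.7 to 34.6 CPM and 37.1 to 41.3 CPM, with log2 fold changes of 0.062 ± 0.07 and 0.29 ± 0.07 against hepatoblasts.

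The Peg10 region of chromosome 6 holds 5 members. Peg10 (chr6:4747306-4760517, + strand), a protein derived from a retrotransposon, measured 330.0, 556, 457 and 527 CPM in hepatoblasts, 146, 57.3, 56.4 and 59.1 CPM in the Diff. group and 3.84, 1.41, 5.37 and 5.90 CPM in the mature group. Diff. replicate 1 stood apart from the other cultured libraries, and that library also held the most of the mesenchymal (2934 CPM), macrophage (139 CPM) and bile duct markers (213 CPM) in its group, whose part in the Peg10 value was not tested. The log2 fold changes were -2.55 ± 0.37 (SE, adjusted p = 5.17e-05) and -6.82 ± 0.46 (SE, adjusted p = 1.9e-08). Sgce, a sarcoglycan that starts next to Peg10, measured 27.9 to 44.8 CPM, 26.3 to 28.5 CPM and 3.85 to 6.45 CPM, and was called lower in mature hepatocytes (-2.95 ± 0.18 SE, adjusted p = 6.15e-09) but not in Diff. hepatocytes (-0.47 ± 0.16 SE, adjusted p = 0.0211). Asb4, part of ubiquitin ligases, measured 21.8, 41.9, 39.2 and 26.1 CPM, 3.85, 3.53, 2.89 and 3.15 CPM and 2, 2, 6 and 2 counts, and was called lower in both. Ppp1r9a, an actin-binding scaffold, measured 40.4 to 64.7 CPM, 20.5 to 28.4 CPM and 14.46 to 23.8 CPM, with -1.18 ± 0.18 (SE, adjusted p = 9.15e-05) and -1.60 ± 0.19 (SE, adjusted p = 3.92e-06) against hepatoblasts. Calcr, the calcitonin receptor, had at most 3 counts in a library and was not tested.

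Slc38a4 (chr15:96994820-97055956, - strand), an amino acid transporter of the liver, measured 256, 366, 406 and 430.4 CPM in hepatoblasts, 686, 857, 793 and 817 CPM in the Diff. group and 1381, 1561, 1182 and 2051 CPM in the mature group, without overlap. It rose by 1.11 ± 0.18 (SE, adjusted p = 0.00017) and 2.08 ± 0.19 (SE, adjusted p = 3.47e-07) on the log2 scale, and the first call was lost with plain library totals (0.80), without hepatoblast replicate 1 (0.98) and by glmTreat (adjusted p = 0.354). Slc22a18, an organic cation transporter of the Kcnq1 cluster, measured 21.2, 26.6, 36.7 and 32.8 CPM, 22.8, 30.4, 31.3 and 31.0 CPM and 144, 121, 113 and 156 CPM. It did not differ by a call in culture (-0.022 ± 0.17 SE, adjusted p = 0.919) and was higher in mature hepatocytes by 2.19 ± 0.17 (SE, adjusted p = 7.69e-08). Its neighbour Phlda2, on the opposite strand with the 3′ ends of both genes close together, went the opposite way in mature hepatocytes.

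Slc22a3, another organic cation transporter, measured 3.61, 1.28, 1.04 and 0.795 CPM in hepatoblasts, 0.562, 0.602, 0.444 and 0.887 CPM in the Diff. group and 4.80, 8.72, 4.20 and 4.34 CPM in the mature group. Its rise in mature hepatocytes, 1.71 ± 0.43 (SE, adjusted p = 0.00291), was no call in a fit of the 8 libraries of the comparison (adjusted p = 0.0105), and was 0.83 with plain library totals. Leaving out hepatoblast replicate 2 or 3 or mature replicate 2 also ended the call, with log2 fold changes of 1.58, 1.52 and 1.39. Against hepatoblasts, Diff. hepatocytes stood at -1.43 ± 0.47 (SE, adjusted p = 0.0192), which became a call by DESeq2 (adjusted p = 0.00662), with plain library totals (-1.80) or without hepatoblast replicate 4 (-1.67). Hepatoblast replicate 1, the library with the most erythroid, macrophage and endothelial RNA of its group, held the highest value there. Without it the log2 fold changes were -0.73 in Diff. and 2.39 in mature hepatocytes. These are ends of the ranges of -1.67 to -0.73 and 1.39 to 2.39 over fits without 1 library. Kcnq1, a potassium channel subunit, had 9, 12, 4 and 6 counts in hepatoblasts, 3, 2, 0 and 0 counts in the Diff. group and 16, 9, 27 and 10 counts in the mature group. Mature hepatocytes held 17.4-fold (95% interval 7.08 to 55.6) more of it than Diff. hepatocytes, an interval for counting error only, and the log2 fold change of -4.00 between them was -4.78 without Diff. replicate 1. Its call against hepatoblasts (1.96 ± 0.51 SE, adjusted p = 0.00367) was lost without hepatoblast replicate 3 or 4 or mature replicate 1 or 3 (log2 fold changes 1.74, 1.86, 1.89 and 1.60) and with plain library totals (1.11). Slc22a2 had 3, 5, 3 and 2 counts in hepatoblasts, 0 in all Diff. libraries and 2, 0, 0 and 0 counts in mature hepatocytes, and was not tested.

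Airn and Kcnq1ot1 are long noncoding RNAs used from the paternal copy, known to silence neighbouring genes on that copy. Airn starts in an intron of Igf2r on the other strand, and Kcnq1ot1 lies within Kcnq1 on the other strand. Airn measured 5.45, 7.79, 7.93 and 9.21 CPM in hepatoblasts, 7.30, 6.50, 5.42 and 6.85 CPM in the Diff. group and 0.617, 0.706, 0.583 and 0.496 CPM in the mature group. Kcnq1ot1 measured 60.8, 66.7, 76.3 and 71.3 CPM, 78.0, 74.1, 72.9 and 67.0 CPM and 19.4, 20.8, 16.4 and 14.2 CPM. Both stayed without a call in culture (-0.22 ± 0.17 SE, adjusted p = 0.291, and 0.086 ± 0.11 SE, adjusted p = 0.53) and fell in mature hepatocytes (-3.65 ± 0.22 SE, adjusted p = 5.18e-09, and -1.96 ± 0.12 SE, adjusted p = 6.29e-09). Intron reads of Igf2r and Kcnq1 cannot be told apart from these RNAs where strand was not used.

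The Snrpn region of chromosome 7, known for its part in Prader-Willi and Angelman syndromes, holds 4 members. Ube3a, a ubiquitin ligase imprinted in neurons, measured 52.3 to 61.5 CPM, 56.5 to 65.8 CPM and 50.9 to 62.9 CPM in the 3 groups. Its neighbour Snrpn, a splicing protein, measured 4.64, 5.19, 4.498 and 4.31 CPM, 2.25, 1.68, 2.26 and 2.22 CPM and 4.45, 6.09, 6.24 and 4.59 CPM, and all cultured libraries were below both other groups (-1.15 ± 0.18 SE, adjusted p = 8.51e-05, and -1.35 ± 0.18 SE, adjusted p = 1.85e-05). Neither Snrpn call held by glmTreat (adjusted p = 0.26 and 0.0336), and the second was also lost with plain library totals (-0.83). Ndn, a growth suppressor of neurons, measured 4.57 to 6.02 CPM, 3.74 to 6.91 CPM and 0 to 0.248 CPM, and fell in mature hepatocytes (-4.99 ± 0.42 SE, adjusted p = 1.57e-07). Magel2 had 2, 7, 5 and 3 counts in hepatoblasts, 1 count in 1 Diff. library and 0 in all mature libraries.

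Gatm, the first enzyme of creatine synthesis, measured 13.4, 5.25, 4.40 and 3.31 CPM in hepatoblasts, 2.20, 0.731, 1.24 and 0.591 CPM in the Diff. group and 6.72, 5.13, 8.98 and 5.46 CPM in the mature group. It was lower in Diff. hepatocytes than in hepatoblasts (-2.45 ± 0.48 SE, adjusted p = 0.000649) and mature hepatocytes (-2.45 ± 0.49 SE, adjusted p = 0.000593). Its highest hepatoblast library was replicate 1, without which its log2 fold change in Diff. hepatocytes against hepatoblasts was -1.84 (-2.93 to -1.84 over fits without 1 library) and mature hepatocytes stood 0.60 above hepatoblasts on the log2 scale, a difference with no call (adjusted p = 0.133). Zrsr1, a splicing factor nested in an intron of Commd1, measured 6.80, 6.27, 6.18 and 5.27 CPM, 12.1, 13.8, 11.7 and 11.6 CPM and 19.7, 18.98, 23.4 and 26.4 CPM, rising by 1.00 ± 0.13 (SE, adjusted p = 1.81e-05) and 1.85 ± 0.13 (SE, adjusted p = 2.62e-08). The first of these lay at the threshold, with 0.93 to 1.07 over fits without 1 library, and with plain library totals both calls were lost (0.68 and 0.99). The first call was also lost without the 50 most abundant genes (0.89), with no filter beyond 1 count (0.98) and by glmTreat (adjusted p = 0.66). A fit of the 8 libraries of the comparison lost it (0.99). So did fits without hepatoblast replicate 3 or 4, Diff. replicate 2 or any 1 mature replicate. Commd1, which acts in protein trafficking, measured 15.5 to 19.2 CPM, 8.67 to 9.81 CPM and 12.4 to 15.1 CPM, with -0.90 ± 0.11 and -0.33 ± 0.11 against hepatoblasts.

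Of the remaining members, Nnat, a small membrane protein, measured 8.99 to 14.53 CPM, 12.96 to 15.99 CPM and 0.310 to 1.92 CPM and fell in mature hepatocytes (-3.26 ± 0.32 SE, adjusted p = 8.42e-07). Impact, a regulator of translation, measured 26.0 to 34.0 CPM, 25.8 to 27.8 CPM and 9.11 to 12.96 CPM and fell in mature hepatocytes too (-1.53 ± 0.12 SE, adjusted p = 5.32e-08). H13, a signal peptide peptidase, measured 65.0 to 82.8 CPM, 96.2 to 121 CPM and 146 to 157 CPM, groups that did not overlap, and its change of 1.01 ± 0.09 (SE, adjusted p = 3.83e-07) in mature hepatocytes lay at the threshold and was lost under most other settings, such as DESeq2 (0.995), with plain library totals (0.16) and without any 1 of 5 libraries, hepatoblast replicates 1 and 2, Diff. replicate 2 and mature replicates 1 and 4 (lowest 0.94). Nap1l5, a histone chaperone-like protein, had 5, 10, 8 and 6 counts in hepatoblasts, 11, 15, 12 and 9 counts in the Diff. group and 2, 2, 1 and 0 counts in the mature group. It was higher in Diff. than in mature hepatocytes by 6.69-fold (95% interval 2.67 to 21.5), for counting error only. Nap1l5 passed the filter of more than 10 counts only through Diff. libraries, the group where it was highest. Its calls as higher in that group are therefore not independent of the filter. Gnas, the stimulatory G protein locus, measured 12.8 to 14.9 CPM, 7.24 to 8.17 CPM and 6.73 to 10.5 CPM, Inpp5f, a phosphoinositide phosphatase, 32.3 to 48.3 CPM, 21 to 25.8 CPM and 38.2 to 51.0 CPM, and the matrix protein Dcn 27.4 to 43.8 CPM, 40.7 to 52.1 CPM and 23.3 to 36.7 CPM. Gnas and Inpp5f differed between hepatoblasts and Diff. hepatocytes by -0.90 ± 0.14 and -0.90 ± 0.13, under the fold change threshold, and with plain library totals both passed it (-1.23 and -1.22), as did Commd1 (-1.22). The same totals also gave calls in mature hepatocytes against hepatoblasts for Gnas (-1.58), Commd1 (-1.17) and Nap1l5 (-2.28), and between the hepatocyte groups for Dcn (1.03). Totals without the 50 most abundant genes gave these calls too, except that of Commd1 in mature hepatocytes, at -1.01, -1.01 and -1.01 in Diff. hepatocytes, -1.39 and -2.10 in mature hepatocytes and 1.05 between the hepatocyte groups. Nap1l5 was called higher in Diff. hepatocytes than in hepatoblasts in a fit of those 8 libraries (adjusted p = 0.00752) and without mature replicate 4 (adjusted p = 0.00657). Inpp5f was called lower in Diff. hepatocytes than in hepatoblasts without hepatoblast replicate 1 (-1.01), and than in mature hepatocytes without Diff. replicate 4 (-1.03) or mature replicate 1 (-1.06). Slc38a4 was lower in Diff. than in mature hepatocytes by a call without Diff. replicate 2 (-1.02), mature replicate 1 (-1.02) or mature replicate 3 (-1.08).

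Ratios within a library compare neighbours without the scaling of libraries. Of 10 pairs listed, 9 could be compared and Magel2/Ndn had too few counts. The log2 count ratio of H19 to Igf2 was 4.496 ± 0.08 in hepatoblasts, 6.80 ± 0.13 in the Diff. group and 5.06 ± 0.20 in the mature group (SD, n = 4). The ratio was thus 2.31 higher in Diff. hepatocytes and 0.56 higher in mature hepatocytes than in hepatoblasts, with an exact permutation p of 0.0286 each, the smallest that 4 against 4 libraries can give (two-sided, adjusted p = 0.0335 over 27 tests). As Igf2 counts may be understated, only the differences of this ratio are read. Copg2 to Mest went from -1.12 ± 0.14 in hepatoblasts to 0.10 ± 0.22 in Diff. and 4.78 ± 0.44 in mature hepatocytes. Cdkn1c to Kcnq1ot1 went from 1.79 ± 0.19 to -0.43 ± 0.18 and -4.41 ± 0.66. In all 3 comparisons these 3 pairs, Usp29/Peg3 and Sgce/Peg10 reached that smallest exact p of 0.0286, although Usp29/Peg3 did not between the hepatocyte groups with 2 counts added in place of 0.5 (exact p = 0.286). That p is reached whenever the libraries of 2 groups do not overlap, as in CPM for 57.5% to 66% of all single genes tested. The share of other gene pairs that reach it was not counted, so these results only describe the listed pairs.

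Other pairs differed in only some comparisons. Meg3 to Dlk1 was -1.19 ± 0.12 in hepatoblasts, -0.28 ± 0.29 in Diff. and -0.15 ± 0.79 in mature hepatocytes, and Rian to Meg3 was -0.34 ± 0.04, -0.67 ± 0.10 and -1.14 ± 0.54. Both pairs differed between hepatoblasts and each hepatocyte group (exact p = 0.0286), while between the hepatocyte groups the exact p was 0.8 and 0.114. Airn to Igf2r was -7.50 ± 0.11 in hepatoblasts, -5.67 ± 0.17 in Diff. and -7.55 ± 0.39 in mature hepatocytes, and its difference between mature hepatocytes and hepatoblasts of -0.051 had an exact p of 0.857. Commd1 to Zrsr1 was 1.497 ± 0.27, -0.41 ± 0.15 and -0.67 ± 0.25, with an exact p of 0.114 between the hepatocyte groups and 0.0286 otherwise.

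**Figure D4:**
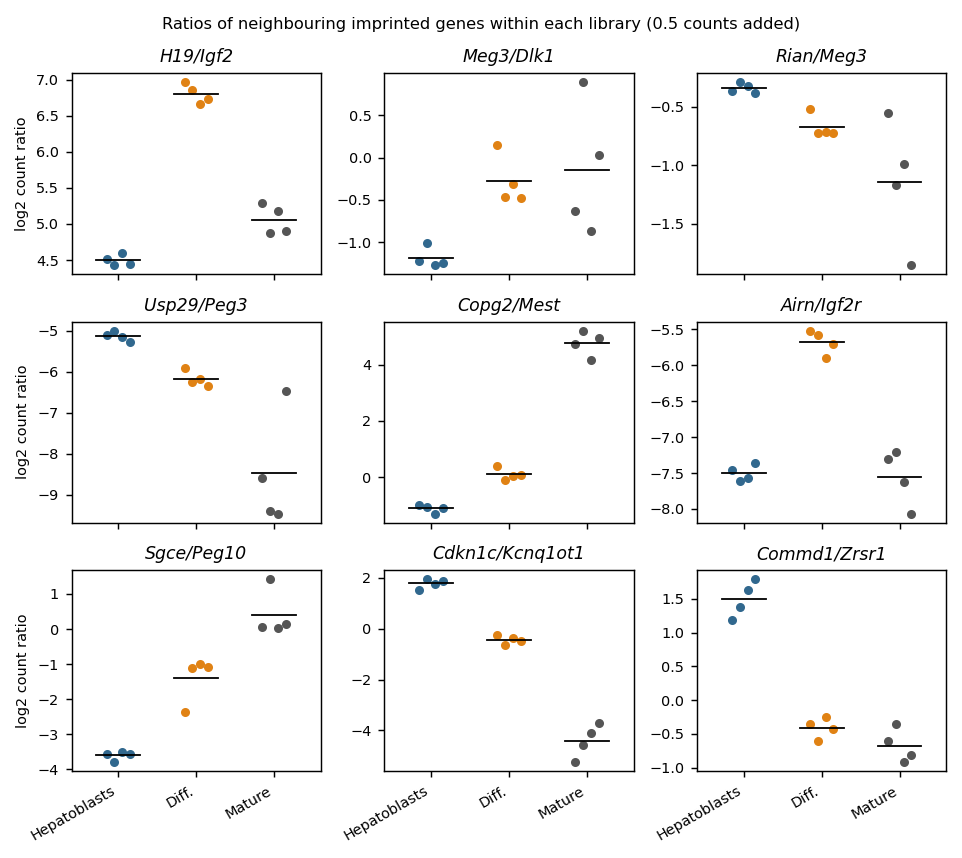
Log2 count ratio of 9 pairs of neighbouring imprinted genes within each library (y axis, 0.5 counts added; x axis, group). Points are libraries and lines are means. H19/Igf2 and Airn/Igf2r are highest in Diff. hepatocytes, at 6.80 ± 0.13 and -5.67 ± 0.17 (SD), and Cdkn1c/Kcnq1ot1 falls from hepatoblasts to mature hepatocytes.

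Levels per exon length (TPM) order the members within a group. In hepatoblasts the order began with H19 at 20825 ± 3137 TPM, Dlk1 at 2143 ± 313 TPM, Grb10 at 620.2 ± 88.0 TPM and Igf2r at 510.3 ± 79.7 TPM. Grb10 and Igf2r overlapped over the libraries, while H19 and Dlk1 were clear of the next gene. In Diff. hepatocytes H19 led again at 22052 ± 2108 TPM, followed by Slc38a4 at 452 ± 38.9 TPM and Grb10 at 428 ± 44.5 TPM, which overlapped, and Peg3 at 195 ± 14.1 TPM. Dlk1 was the 9th there, at 40.7 ± 2.23 TPM. In mature hepatocytes Slc38a4 led at 509 ± 117 TPM, followed by Slc22a18 at 110.1 ± 11.2 TPM. H13 at 24.0 ± 1.81 TPM and H19 at 19.2 ± 3.52 TPM came next and overlapped. Igf2 was 6th in hepatoblasts at 397 ± 59.1 TPM, with the limit on its counts given above.

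Of 40 other imprinted genes listed, 38 were in the table and 30 were tested. In mature hepatocytes against hepatoblasts, 14 of the 30 were lower and 7 higher, and in Diff. hepatocytes against hepatoblasts 5 were lower and 3 higher. Of all genes tested, 24.7% were lower and 20.1% higher in the first of these comparisons and 14% and 14.9% in the second. The listed genes had median log2 fold changes of -0.70 and -0.23. Zdbf2, a zinc finger gene, measured 3.31 ± 1.04 CPM in hepatoblasts (SD, n = 4) and 1.05 ± 0.234 CPM in Diff. hepatocytes and was at 0 in all mature libraries. Cd81, a tetraspanin, rose by 1.71 ± 0.10 (SE, adjusted p = 3.21e-09) in mature hepatocytes, and the liver enzyme Ddc by 2.53 ± 0.30 (SE, adjusted p = 5.12e-06).

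Genes that maintain imprints at fertilization or at cell division were listed too. Of 20 listed, 18 were tested, with 8 lower and 1 higher in Diff. hepatocytes, and 10 lower and 2 higher in mature hepatocytes, against hepatoblasts. The shares over all genes were 14% and 14.9% in the Diff. group and 24.7% and 20.1% in the mature group. Dnmt1, the maintenance DNA methyltransferase, went from 211 ± 40.2 CPM to 29.8 ± 6.47 CPM and 25.2 ± 1.28 CPM, and its partner Uhrf1 from 170.3 ± 36.7 CPM to 8.03 ± 4.13 CPM and 1.80 ± 0.496 CPM. Both are also expressed with DNA replication, and the cell cycle genes moved with them, a part in these values that was not tested. Zfp57, which guards methylated imprints, was the one called higher in culture, with 3.63 ± 0.534 CPM in hepatoblasts, 11.9 ± 3.71 CPM in the Diff. group and 0.250 ± 0.0732 CPM in the mature group. Its log2 fold change was 1.71 ± 0.22 (SE, adjusted p = 2.18e-05) in Diff. and -3.82 ± 0.31 (SE, adjusted p = 1.2e-07) in mature hepatocytes against hepatoblasts. Zfp445, another such zinc finger protein, rose in mature hepatocytes (1.15 ± 0.12 SE, adjusted p = 9.52e-07).

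Among 13 genes of the IGF axis, 6 were lower and 4 higher in mature hepatocytes than in hepatoblasts, and 4 were lower and 4 higher in Diff. hepatocytes, beside 24.7% and 20.1% of all genes in the mature and 14% and 14.9% in the Diff. group. Igf1, the postnatal counterpart of Igf2, measured 7.70 ± 3.23 CPM in hepatoblasts, 2.64 ± 1.46 CPM in the Diff. group and 896 ± 38.8 CPM in the mature group. It rose by 6.86 ± 0.37 (SE, adjusted p = 2.31e-09) in mature hepatocytes and fell by 1.53 on the log2 scale in Diff. hepatocytes (adjusted p = 0.00171). Igf2bp1, an RNA-binding protein that binds Igf2 mRNA, went from 223 ± 32.2 CPM to 66.5 ± 6.44 CPM and 0.187 ± 0.0394 CPM. Igfbp1, a binding protein secreted by the liver, was highest in Diff. hepatocytes, at 4814 ± 659 CPM beside 250.3 ± 53.1 CPM in hepatoblasts and 497 ± 188 CPM in mature hepatocytes.

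Fetal liver genes and their repressors were listed beside the imprinted genes. Of these 6 genes, 3 were lower and 1 higher in Diff. hepatocytes, and 4 lower and 2 higher in mature hepatocytes, against hepatoblasts, where all genes stood at 14% and 14.9% and at 24.7% and 20.1%. Hepatoblasts held 39312 ± 8260.2 CPM of Afp, the fetal serum protein, the Diff. group 18597 ± 2089 CPM and the mature group 42.3 ± 11.2 CPM. Zhx2 and Zbtb20, known as repressors of Afp after birth, rose in mature hepatocytes by 2.67 ± 0.14 (SE, adjusted p = 2.11e-09) and 4.20 ± 0.14 (SE, adjusted p = 2.34e-11). Zhx2 is also known to repress H19 in the adult liver, and it measured 5.41 ± 1.15 CPM, 10.6 ± 0.734 CPM and 34.6 ± 3.36 CPM in hepatoblasts, Diff. and mature hepatocytes, where H19 measured 14909.5 ± 3443 CPM, 22220.1 ± 2281 CPM and 33.6 ± 5.41 CPM. Lin28b, an RNA-binding protein of fetal cells, measured 43.9 ± 5.17 CPM and 3.72 ± 1.04 CPM and had at most 1 count in a mature library.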

How the data were processed

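The authors deposited raw counts of reads per gene, whole numbers without normalization, for 4 libraries in each of 3 groups. According to the study's methods, poly(A) RNA was made into strand-keeping libraries, and the submitters' processing notes name FastQC 0.11.2, STAR 2.5.2b, Picard 2.10.2 and DESeq2 1.22.2. The STAR column used is not given in the sources used here. Symbols and positions came from the GENCODE annotation of GRCm38, in which 53620 of 53715 identifiers were found.

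Libraries were grouped by their labels. The 17779 genes above 10 counts in some library were tested with edgeR 4.0.16 (R 4.3.3) and TMM scaling, by the quasi-likelihood test over 12 libraries with group as the only term. The call thresholds, 0.01 for the p adjusted by Benjamini-Hochberg and 1 for the size of the log2 fold change, are the study's. Fold changes carry the standard error of the fit. CPM and TPM were computed from the counts, TPM with summed exon lengths. Where a group had 3 counts or fewer per library, ratios of summed counts with 95% exact binomial intervals are given in place of fitted values. Ratios of neighbours used 0.5 added counts and an exact permutation test over 70 assignments. On simulated counts the fit was checked, and the spread between replicates exceeded counting error (chi-square per gene 6.43 to 99.2). The series' design text calls the replicates biological, and p-values measure the spread between these libraries.

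The members, the other lists and the tests were chosen with earlier results of these data known. All members are reported, and other genes come from lists of imprinted, imprint maintenance, IGF axis and fetal liver genes and of cell type markers. Alternatives were DESeq2 1.42 (Wald test), its size factors, other scalings, filters and thresholds, fits of 8 libraries, a replicate block and fits without each library. miRNA and promoter sequences are RefSeq's (GRCm38.p6).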

Additional observations from a re-analysis of the deposited data

Results flagged for a closer look

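Members with more than 10 counts in a library of a group gave 114 sets of 4 libraries. In 16 sets the highest or lowest library lay farther from the others than Dixon's test allows at the 95% level. Chance sets apart about 1 in 20 sets, or 5.7 of 114. The share of all genes tested that is set apart in this way was not counted, so these numbers only describe the members. Hepatoblast replicate 1 was below the other libraries of its group for Usp29 at 15.5 CPM (others 23.4 to 24.6), Cdkn1c at 175 CPM (others 259 to 265), Grb10 at 1162 CPM (others 1784 to 1801), Igf2r at 957 CPM (others 1502 to 1523) and Inpp5f at 32.3 CPM (others 46.6 to 48.3). Hepatoblast replicate 3 was below the others for Gnas at 12.8 CPM (others 14.6 to 14.9). Diff. replicate 1 was above the others for Peg10 at 146 CPM (others 56.4 to 59.1), and below them for Mest at 24.8 CPM (others 32.9 to 33.6) and Slc22a18 at 22.8 CPM (others 30.4 to 31.3). Diff. replicate 2 was above the others for Dcn at 52.1 CPM (others 40.7 to 42.0), and below them for Snrpn at 1.68 CPM (others 2.22 to 2.26) and Phlda2 at 1.08 CPM (others 1.87 to 1.998). Diff. replicate 3 was below the others for Impact at 25.8 CPM (others 27.5 to 27.8). In mature hepatocytes, replicate 2 was above the others for Slc22a3 at 8.72 CPM (others 4.20 to 4.80), replicate 3 was above them for Dlk1 at 6.42 CPM (others 3.16 to 3.63), and replicate 4 was below them for Plagl1 at 0.248 CPM (others 0.577 to 0.642). Of the 16, 5 lay in hepatoblast replicate 1, the library with 2070.0 CPM of erythroid genes. It also held the most macrophage, endothelial and cell cycle RNA of its group and the least hepatocyte and mesenchymal RNA. Over all genes, its chi-square per gene against the other hepatoblast libraries was 59.7 to 97.4, beside 8.00 to 19.5 among those. The part of these markers in the low values was not tested. Without this library, 26 members were lower in mature hepatocytes than in hepatoblasts, and 16 in Diff. hepatocytes.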

How the results depend on the processing

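The counts of members called lower in Diff. and mature hepatocytes against hepatoblasts, and higher in Diff. than in mature hepatocytes, stayed within 1.5 times their reported values under all alternatives run. The 2 members higher in Diff. hepatocytes than in hepatoblasts became 0 with plain library totals, 1 with totals without the 50 most abundant genes, 1 with no filter beyond 1 count, 0 with the threshold in the test (glmTreat) and 6 with 0.05 as the only threshold, on the adjusted p. The 6 higher in mature hepatocytes than in hepatoblasts became 2 with plain totals, 3 without the 50 most abundant genes and 3 with glmTreat, and the 5 lower in Diff. than in mature hepatocytes became 11 with 0.05 on the adjusted p alone. Fits without 1 library gave 1 to 2 higher and 15 to 16 lower in Diff. hepatocytes against hepatoblasts, 4 to 6 higher and 26 lower in mature hepatocytes, and 26 higher and 5 to 7 lower between the hepatocyte groups. The causes were not tested.

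With plain totals the sign turned, in Diff. hepatocytes against hepatoblasts, for Zim1 -0.063, Plagl1 -0.23, Copg2 -0.27, Ndn -0.27, Ube3a -0.22 and Kcnq1ot1 -0.23, and without the 50 most abundant genes for Plagl1 -0.019, Copg2 -0.049, Ndn -0.060, Ube3a -0.0085 and Kcnq1ot1 -0.021. In mature hepatocytes against hepatoblasts it turned for Copg2 -0.56, Snrpn -0.65 and Inpp5f -0.77 with plain totals and Copg2 -0.38, Snrpn -0.46 and Inpp5f -0.59 without those genes. Between the hepatocyte groups it turned for Copg2 0.30, Gnas 0.35 and H13 0.057 and Copg2 0.33, Gnas 0.38 and H13 0.088. Over fits without 1 library, log2 fold changes in Diff. hepatocytes crossed 0 for Grb10 -0.16 to 0.0084, Slc22a18 -0.14 to 0.10 and Ndn -0.10 to 0.17, and in mature hepatocytes for Gatm -0.24 to 0.60, Inpp5f -0.049 to 0.14, Ube3a -0.074 to 0.032 and Dcn -0.18 to 0.065. None of these was a call. The Airn/Igf2r ratio difference in mature hepatocytes was 0.14 with 2 counts added and -0.16 to 0.12 without 1 library, and that of Meg3/Dlk1 between the hepatocyte groups -0.37 to 0.21.

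The replicate numbers are shared by the groups, but correlations of same-numbered libraries' deviations ran from -0.0813 to 0.324 and 3 of 12 passed 0.1, all 3 among the 4 between hepatoblasts and Diff. hepatocytes, where the fourth was -0.0589, so the numbers were not taken to pair libraries, and hepatoblast replicate 2 correlated best with Diff. replicate 3 among the Diff. libraries (0.14). With the replicate number as a block, 2 members were higher and 15 lower in Diff. hepatocytes, 6 and 26 in mature hepatocytes, and 26 and 5 between the hepatocyte groups, and the sign of Gatm 0.19 turned. Depth limits Dio3, Usp29, Mirg, Kcnq1 and Nap1l5, which had 3 counts or fewer in each library of a group.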
